A study of Mus musculus with 60 samples.

Results

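In vivo mouse embryos were followed from the 1-cell to the 2-cell stage across all genes. The members are the 3 single-embryo libraries labelled Invivo 1-cell embryo and the 3 labelled Invivo 2-cell embryo, 6 of the 60 libraries of the series. They were chosen by their labels, and no measured value entered the choice. All 6 embryos were BDF1, made by superovulating C57BL/6 females and mating them with DBA2 males, and each library came from 1 embryo. The 1-cell embryos were at the pronuclear stage, and the age of the females and the hour of collection of the 2-cell embryos are not given in the sources used here. The rest of the series holds later in vivo stages, embryos made by nuclear transfer (NT) from cumulus cells (NTC) or mouse embryonic fibroblasts (NTM), and both donor cell types. The NTC and NTM 1-cell and 2-cell embryos, 6 libraries each, serve as a comparison. They carried a donor nucleus in an enucleated BDF1 oocyte, were activated in strontium chloride with cytochalasin B and Scriptaid, and were cultured in vitro.

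A mouse zygote starts with RNA that the oocyte made. This maternal RNA is degraded in steps, and the embryo's own genome becomes active around the 2-cell stage in a minor and then a major wave. The genes best known for a burst at the 2-cell stage include the Zscan4 family, the transcription factor Dux, the Usp17l deubiquitinases and several genes driven by endogenous retroviral repeats. Oocyte genes such as the linker histone H1foo and the zona pellucida genes are known for maternal RNA that is lost as the embryo takes over.

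Values are RPKM, reads scaled to the length of the transcript and the depth of the library, as the authors deposited them. The 6 libraries held an estimated 10445982 to 18619638 reads on genes. The depths were recovered from the steps between RPKM values and GENCODE M21 exon lengths, and are not the authors' counts. With them, 75.7% to 78.8% of the low values per library came out as whole reads. On a 2000 nt transcript, 1 read was then worth 0.0269 to 0.0479 RPKM. The number of genes above 0 was 9491, 12187 and 12593 in the 1-cell libraries and 14582, 10667 and 12251 in the 2-cell libraries. Mitochondrial genes took 4.71% to 13.4% of the reads in 1-cell and 7.32% to 12.7% in 2-cell libraries. Reads without molecular identifiers are not independent molecules, so these depths cover counting error alone.

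The libraries did not group by stage alone. Over 10854 genes, Pearson correlations of log2(RPKM + 1), across genes that are not independent replicates, were 0.921 between 1-cell replicates 2 and 3 and 0.761 to 0.762 between 1-cell replicate 1 and these. 2-cell replicate 1 had correlations of 0.866 and 0.888 with 1-cell replicates 2 and 3, above its 0.812 and 0.727 with the other 2-cell libraries. 2-cell replicate 3 stood apart, with correlations of 0.66 to 0.727 with every other library. The median SD per gene on the log2 scale was 0.72 in 1-cell and 0.81 in 2-cell in vivo embryos, against 0.28 to 0.71 in the NT groups of these stages.

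Differences are on the scale of log2(RPKM + 1), 2-cell minus 1-cell, and this scale understates the change of low genes. RPKM is a share of a library from 1 whole embryo, so a change of all RNA, or fewer cells against less RNA per cell, cannot be told apart from these values. In a limma fit to the 6 libraries, 0 of 10854 genes (0%) passed an adjusted p (Benjamini-Hochberg) under 0.05 with a log2 change of at least 1 in size, and the lowest adjusted p was 0.0952. At an unadjusted p under 0.05 with the same size of change, 382 genes were higher (3.52%) and 230 were lower (2.12%) in 2-cell embryos. One limma fit over all 60 libraries, which takes the spread from 20 groups, called 378 genes higher (3.48%) and 222 lower (2.05%). The standard error was smaller in it than in the fit to 6 libraries for 8593 genes (79.2%). Examples are Duxf3 (0.30 against 0.89) and Gm8711 (0.33 against 0.88). That error was larger for others, such as Txnip (0.84 against 0.52) and H1foo (0.66 against 0.43). Gm8711 was listed at 0 in all later in vivo stages and in NTM 1-cell and 2-cell embryos, so these groups added no spread. A low p-value over 20 groups can therefore rest on groups outside this comparison. Leaving out 2-cell replicate 1 raised the calls in the fit over 20 groups from 600 to 1092, and leaving out 1-cell replicate 1 turned the split to 253 higher and 408 lower. The groups did not overlap in 769 genes that were higher (7.08%) and 554 that were lower (5.1%). Below, "rose" and "fell" are used of genes called in the fit over 20 groups, and none of them passed the fit to 6 libraries.

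**Figure D1:**
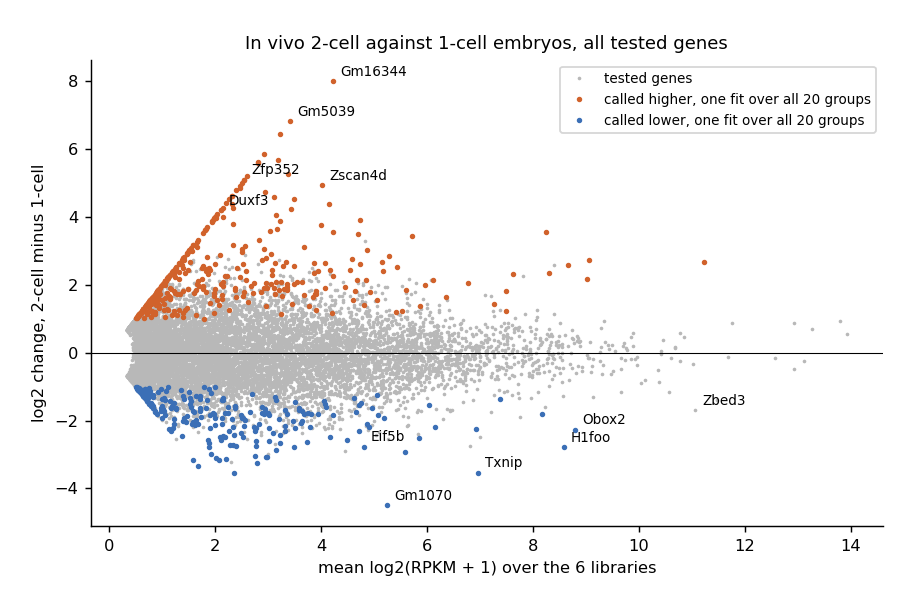
Each point is 1 of the 10854 tested genes, with its mean log2(RPKM + 1) over the 6 in vivo libraries (horizontal axis) and its log2 change, 2-cell minus 1-cell (vertical axis). Orange points are the 378 genes called higher and blue points the 222 called lower in the fit over 20 groups. The largest increase is 8.01 (Gm16344) and the largest decrease among the named genes is -4.49 (Gm1070).

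Of these calls, 110 of the 378 higher and 41 of the 222 lower were also made in each of 6 fits that left out 1 in vivo library in turn. The rising set was poor in annotated protein-coding genes: 208 of 378 (55%) were protein coding, 74 were pseudogenes and 57 were long noncoding or antisense transcripts. Of the falling set, 160 of 222 (72.1%) were protein coding, and of all tested genes 86.8%. Genes of these multi-copy families share nearly identical sequence, and how reads that match several copies were counted is not given in the sources used here, so the level of any 1 copy is uncertain.

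Most transcripts of the 2-cell burst were at 0 in 1-cell libraries, and the tested ones had a higher mean in 2-cell libraries. A list of 36 genes known for a 2-cell burst had 34 members in the table. Of these 34, 10, 8 and 10 were above 0 in 1-cell replicates 1, 2 and 3, and 7, 6 and 6 reached 1 RPKM. These few members made up 1-cell sums of 86, 262 and 205 RPKM, so not all of the list was low before the 2-cell stage. Of the 28 that were tested, 17 rose and 0 fell, where 3.48% and 2.05% of all tested genes did. The median log2 change was 2.48, against 0.02 over all genes tested. The groups did not overlap, with 2-cell higher, in 21 of the 28, against 7.08% of all tested genes. Of the 28 changes, 28 were positive, against 5531 of 10854 over all tested genes. The other 6 members of the table (Tdpoz2, Tdpoz5, Usp17la, Usp17le, Pramel6 and Pramel7) were too low to be tested. Without 2-cell replicate 3, 11 of 22 tested members were called, with a median of 2.19.

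Duxf3, the annotated symbol of Dux, is the homeobox factor that switches on many 2-cell genes. It was listed at 0, 0 and 0.0204 RPKM in the 1-cell libraries and at 11.4, 63.1 and 6.93 RPKM in 2-cell replicates 1, 2 and 3. The groups did not overlap, with a log2 change of 4.2 (SE 0.89), an adjusted p of 0.257 in the limma fit to 6 libraries and 4.83e-15 in the limma fit over 20 groups. Unlike most members of the list, Duxf3 was highest in replicate 2 and lowest in replicate 3.

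Zscan4d belongs to a cluster of zinc finger genes that mark the 2-cell embryo and protect telomeres. Its level was 1.79, 1.95 and 2.02 RPKM in the 1-cell libraries and 11.1, 168 and 355 RPKM in the 2-cell libraries. Zscan4c went from 0.583, 0.715 and 0.983 RPKM to 5.33, 42.8 and 271 RPKM. Zscan4f had 3.15, 3.81 and 2.97 RPKM before and 7.49, 48.2 and 493 RPKM after. All 5 tested family members rose, with log2 changes of 4.95 (Zscan4d), 4.59 (Zscan4c), 3.78 (Zscan4f), 2.00 (Zscan4b) and 1.42 (Zscan4e), and in each of them the lowest 2-cell value lay above the highest 1-cell value. The 3 1-cell embryos held close levels of each member, while the 2-cell embryos spread widely.

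Zfp352, a zinc finger gene, was listed at 0 in all 1-cell libraries and at 12, 6.93 and 395 RPKM in 2-cell embryos. Gm5039 was also listed at 0 in all 1-cell libraries and reached 8.89, 184 and 791 RPKM. Usp17lb and Usp17lc encode deubiquitinases, enzymes that remove ubiquitin from proteins. Usp17lb had 2.37, 10.5 and 162 RPKM and Usp17lc 10.6, 11.6 and 66 RPKM in the 2-cell libraries, from 0 in every 1-cell library. Spz1, a helix-loop-helix factor first described in testis, had 5.0, 28.5 and 82.9 RPKM, again from 0. No fold is given for genes listed at 0 in a whole group.

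The promoters of 6 of these genes are shown because their transcripts were low in 1-cell embryos, at most 2.02 RPKM (Zscan4d), and higher in every 2-cell library. The sequences are from RefSeq (GRCm38.p6), 250 bases before to 50 bases after the start, 5′ to 3′ on the strand of the gene. Capitals mark matches on either strand to any of 4 motifs, none of which contains another. The TATA box was searched as TATAAA. For the CCAAT box, bound by NF-Y, the name gives the letters. The core that Obox-type homeodomains bind was searched as GGATTA. For the half-site of Nr5a2-type receptors the letters were CAAGGNCA.
Zscan4c promoter (chr7:11005495-11005794, plus strand): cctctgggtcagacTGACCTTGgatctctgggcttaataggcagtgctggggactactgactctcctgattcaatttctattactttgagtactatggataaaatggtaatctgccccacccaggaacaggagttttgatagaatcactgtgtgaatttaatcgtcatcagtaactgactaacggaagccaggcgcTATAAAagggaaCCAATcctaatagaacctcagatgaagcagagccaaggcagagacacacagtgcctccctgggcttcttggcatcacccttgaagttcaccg
Zscan4d promoter (chr7:11166099-11166398, minus strand): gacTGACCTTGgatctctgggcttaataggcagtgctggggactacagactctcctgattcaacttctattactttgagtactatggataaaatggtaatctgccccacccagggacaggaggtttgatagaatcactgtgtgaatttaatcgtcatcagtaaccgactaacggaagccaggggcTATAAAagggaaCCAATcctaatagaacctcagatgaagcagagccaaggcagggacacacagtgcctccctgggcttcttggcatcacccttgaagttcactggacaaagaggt
Usp17lb promoter (chr7:104842534-104842833, minus strand): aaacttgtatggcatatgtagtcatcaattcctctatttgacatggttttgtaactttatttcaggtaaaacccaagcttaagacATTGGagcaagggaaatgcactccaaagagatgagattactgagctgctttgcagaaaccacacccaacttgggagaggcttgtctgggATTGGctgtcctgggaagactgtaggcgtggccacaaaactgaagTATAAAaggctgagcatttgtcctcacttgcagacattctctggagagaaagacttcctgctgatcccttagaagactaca
Usp17lc promoter (chr7:103416446-103416745, plus strand): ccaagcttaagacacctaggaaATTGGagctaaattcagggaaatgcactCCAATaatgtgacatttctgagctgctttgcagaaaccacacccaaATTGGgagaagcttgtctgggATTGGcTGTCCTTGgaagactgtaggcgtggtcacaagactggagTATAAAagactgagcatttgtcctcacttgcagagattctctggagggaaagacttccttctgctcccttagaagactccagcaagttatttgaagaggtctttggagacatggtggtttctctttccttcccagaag
Zfp352 promoter (chr4:90218570-90218869, plus strand): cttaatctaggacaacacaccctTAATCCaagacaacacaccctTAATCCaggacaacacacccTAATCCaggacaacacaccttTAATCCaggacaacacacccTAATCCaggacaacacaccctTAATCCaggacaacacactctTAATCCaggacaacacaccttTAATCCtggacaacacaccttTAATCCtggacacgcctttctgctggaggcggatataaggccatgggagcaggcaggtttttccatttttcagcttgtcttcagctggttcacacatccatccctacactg
Duxf3 promoter (chr10:58233040-58233339, minus strand): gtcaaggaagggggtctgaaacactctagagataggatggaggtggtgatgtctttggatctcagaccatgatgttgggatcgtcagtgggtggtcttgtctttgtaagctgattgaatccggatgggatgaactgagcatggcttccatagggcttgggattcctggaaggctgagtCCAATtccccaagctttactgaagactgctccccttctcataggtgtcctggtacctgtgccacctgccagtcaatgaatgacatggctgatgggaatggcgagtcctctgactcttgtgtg

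The Zscan4c and Zscan4d promoters were identical at 281 of 289 bases (97.2%) when shifted by 11 bases, and each held the TATA box, the CCAAT box and the Nr5a2 half-site once. Usp17lb and Usp17lc matched at 198 of 243 bases (81.5%) when shifted by 57 bases, without gaps. The Zfp352 promoter held the Obox core 9 times, each time on the other strand. Among 27025 RefSeq promoters of this length, 7.16% held the Obox core, 14.2% the TATA box, 37.9% the CCAAT box and 6.67% the Nr5a2 half-site at least once. Of the 18 tested list members with a promoter matched by symbol, 6 held the Obox core, 7 the TATA box, 12 the CCAAT box and 10 the Nr5a2 half-site, and members of 1 family share much of their sequence. Of 172 matched promoters of genes that rose, 15.1% held the Obox core, 12.2% the Nr5a2 half-site, 15.7% the TATA box and 45.3% the CCAAT box. Of 135 matched promoters of genes that fell, 7.41%, 4.44%, 9.63% and 43.7% did, in the same order, and of 7872 of tested genes 5.78%, 4.69%, 7.66% and 40.2%. The longer Dux motif, searched on both strands, was in 11 of all 27025 promoters and in 0 of the 18. A match of letters is a description of the window and not a binding site.

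Several more of the 14 largest increases were of the same on-off kind. Gm16344 had 0, 0.545 and 0 RPKM in 1-cell embryos and 41, 172 and 3665 RPKM in 2-cell embryos, with a log2 change of 8.01 (SE 1.26) and an adjusted p of 0.0952 (limma, 6 libraries). It is annotated antisense to Myo7b, a myosin gene listed at up to 0.119 RPKM in these libraries, and without strand the reads of both cannot be told apart. Gm8332 was listed at 0 in all 1-cell libraries and at 9.88, 107 and 571 RPKM in 2-cell libraries. Gm8711 and Gm6489 are annotated as pseudogenes. Gm8711 had 17.2, 51.7 and 202 RPKM and Gm6489 12.6, 30.2 and 116 RPKM in the 2-cell embryos, from 0 in every 1-cell embryo.

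B020031M17Rik had at most 1.91 RPKM in 1-cell embryos and 2.90, 55.5 and 1230 RPKM in 2-cell embryos. Gm8300 (5.45, 27.7 and 626 RPKM), Gm10696 (2.26, 42 and 288 RPKM) and Gm5662 (3.24, 16.7 and 450 RPKM) were listed at 0 in all 1-cell embryos. Prps1 encodes a phosphoribosyl pyrophosphate synthetase, which feeds nucleotide synthesis. It was at 0 in 1-cell embryos and at 0.835, 24.7 and 591 RPKM in 2-cell embryos. The genes ENSMUSG00000086151 and ENSMUSG00000087346, which have no symbol, had 10.6, 99.7 and 237 RPKM and 7.06, 95.4 and 153 RPKM in the 2-cell embryos, from at most 0.999 RPKM in 1-cell embryos.

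**Figure D2:**
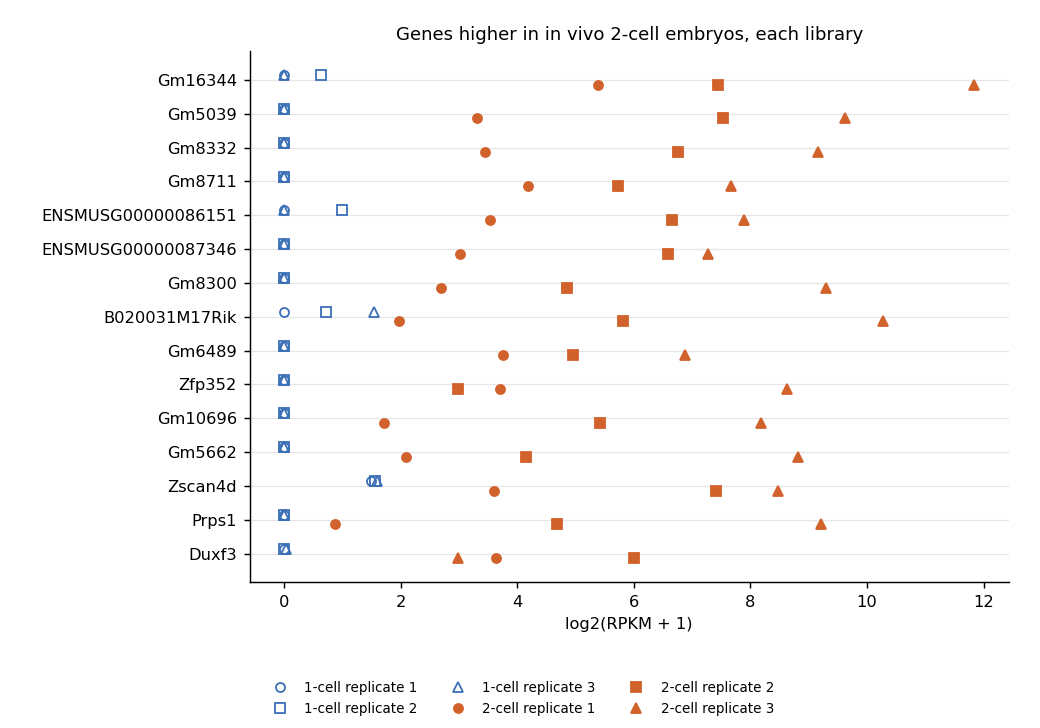
Level of the 14 genes with the largest increases under the naming rule, and of Duxf3, in each of the 6 in vivo libraries, as log2(RPKM + 1). Open blue symbols are 1-cell and filled orange symbols 2-cell embryos, and the symbol shape gives the replicate. In each gene the 2-cell symbols lie to the right of the 1-cell symbols, and 2-cell replicate 3 is the rightmost in every gene drawn except Duxf3.

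In all, 37 genes were listed at 0 in the 3 1-cell libraries and at 1 RPKM or more in each 2-cell library. In the opposite direction there were 3, namely Olfr847, Gm12540 and Col9a3. Besides the genes above, the 37 included Dcdc2c (2.58, 5.04 and 159 RPKM), Msx1, a homeobox gene (1.28, 4.58 and 5.28 RPKM), and Obox4-ps28, Obox4-ps13 and Obox4-ps12, annotated as pseudogenes. These examples were chosen after their values were seen. At the estimated depths, a value of 0 allows up to 3 reads by counting. In the 1-cell libraries this was 0.0827 to 0.144 RPKM on a transcript of 2000 nt, and RNA lost before amplification is not covered.

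The 2-cell libraries differed in the level of these transcripts. The list of 2-cell genes summed to 86, 262 and 205 RPKM in the 1-cell libraries and to 325, 964 and 5163 RPKM in the 2-cell libraries. Of its 28 tested genes, 24 were highest in 2-cell replicate 3 and 17 were lowest in 2-cell replicate 1. Over all tested genes, 30% were highest in replicate 3 and 15.9% lowest in replicate 1. Among the 222 genes that fell, 138 (62.2%) kept their highest 2-cell value in replicate 1, where 40.2% of all tested genes did. Among the 378 genes that rose the order was less sharp than in the list. Of them, 43.4% were lowest in replicate 1 and 32% in replicate 3, while 42.1% were highest in replicate 2 and 44.7% in replicate 3. Their medians were 3.56, 9.42 and 11.5 RPKM in replicates 1, 2 and 3. So replicate 1, the library nearest to the 1-cell embryos by correlation, held less of the rising and more of the falling transcripts than the other 2. The rising and falling genes were called with these same libraries, so their order among them is a description. Replicate 1 also had the most genes above 0, 14582 against 10667 and 12251. The exact age of the 3 embryos is not in the labels, and its part in these differences was not tested.

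**Figure D3:**
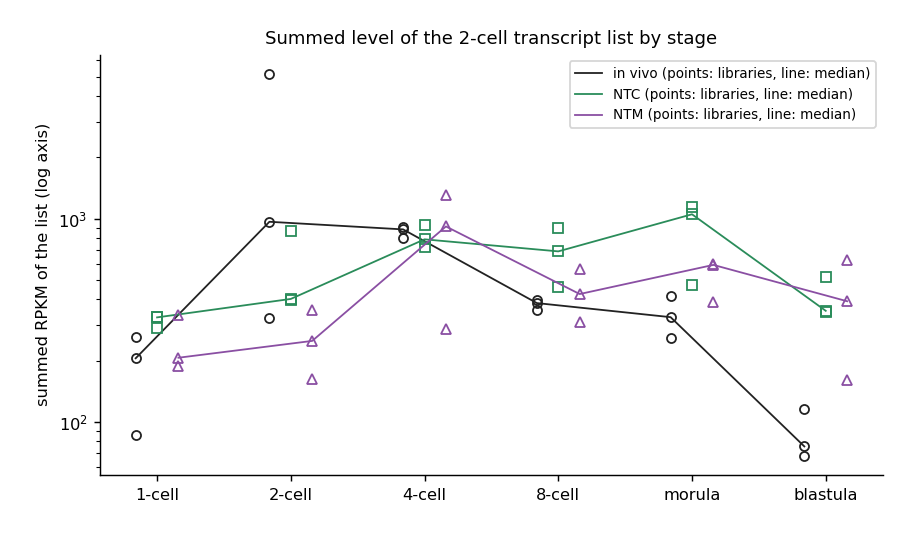
Summed RPKM of the 34 genes of the 2-cell list that are in the table, by stage (horizontal axis) and on a log axis, for in vivo, NTC and NTM embryos. Symbols are single libraries and lines join the medians. In vivo 2-cell embryos range from 325 to 5163, and the 3 in vivo 4-cell embryos lie between 801 and 904.

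Proposed activators held members that changed in both directions. Of 25 tested genes of the Obox family and other proposed activators, 2 rose and 1 fell, where 3.48% and 2.05% of all tested genes did, with a median log2 change of -0.06 and quartiles of -0.79 and 0.91. The groups did not overlap in 5 that were higher and 3 that were lower, against 7.08% and 5.1% of all tested genes. Without 2-cell replicate 3, 0 of 21 tested members rose. Dppa4, a chromatin factor that acts upstream of Dux, had 0, 1.29 and 0.0718 RPKM in 1-cell and 3.54, 3.85 and 38.5 RPKM in 2-cell embryos. Gabpa, an ETS-family factor, was listed at 0 in all 1-cell embryos and at 0.576, 4.45 and 15.6 RPKM in 2-cell embryos. Obox2, a maternal homeobox gene, fell from 999, 1049 and 871 RPKM to 139, 438 and 133 RPKM, with a log2 change of -2.26 (SE 0.50). Its gene body overlaps that of Obox1 on the same strand, and Obox1 had 350 to 524 RPKM before and 189 to 417 RPKM after.

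Of 15 tested pluripotency and lineage genes, 1 rose and 0 fell, where 3.48% and 2.05% of all tested genes did. The riser, the trophoblast factor Elf5, was at 0, 4.2 and 2.56 RPKM in 2-cell and 0 in all 1-cell embryos, with overlapping groups, and it was called in 1 of the 6 fits that left out 1 library. Nanog, a core pluripotency factor, was listed at 0 in 5 of the 6 libraries and at 1.57 RPKM in 2-cell replicate 3, too low to be tested. Pou5f1 (Oct4) had 22.5, 6.05 and 15.8 RPKM in 1-cell and 9.94, 6.37 and 1.16 RPKM in 2-cell embryos, and these ranges overlapped.

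Maternal transcripts were described by 4 lists. H1foo, the oocyte linker histone, was at 652, 1481 and 1045 RPKM in 1-cell and at 162, 148 and 127 RPKM in 2-cell embryos. The 2-cell libraries lay close together and well below every 1-cell library, with a log2 change of -2.78 (SE 0.43) and an adjusted p of 0.0952 in the limma fit to 6 libraries and 0.00576 in the limma fit over 20 groups. Zar1, a maternal-effect RNA-binding protein, also fell, with 57.8, 228 and 252 RPKM before and 68, 43.5 and 11 RPKM after, but its groups overlapped. Of 34 tested genes of the oocyte and zona list, these 2 fell and 0 rose, where 2.05% and 3.48% of all tested genes did, and the median log2 change was -0.50. Leaving out 1 library gave 1 to 5 falling genes, the 5 without 1-cell replicate 1 and the 1 without 1-cell replicate 2 or 3.

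Of the 34 tested genes of that list, 26 had a negative and 8 a positive change. Gdf9, a growth factor secreted by the oocyte, had 95.9, 729 and 382 RPKM in 1-cell and 163, 122 and 99.7 RPKM in 2-cell embryos. Bmp15, its partner, had 419, 1050 and 1022 RPKM before and 1471, 1057 and 1001 RPKM after. Zp2 and Zp3 encode proteins of the zona pellucida, the coat of the egg. Zp2 had 45.5, 74.2 and 79.7 RPKM before and 117, 148 and 77.1 RPKM after, and Zp3 30.8, 162 and 117 RPKM before and 30.4, 21.8 and 51.9 RPKM after. In each of these 4 genes the ranges of the stages overlapped, and none was called.

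Of the 8 tested genes of the subcortical maternal complex, a protein assembly under the membrane of the egg, 0 were called in either direction. Zbed3 was its most abundant member, with 5339, 3345 and 3239 RPKM in 1-cell and 1999, 2696 and 310 RPKM in 2-cell embryos. These groups did not overlap, and the adjusted p was 0.0538 in the limma fit over 20 groups. Nlrp5 (Mater) had 84.5, 124 and 106 RPKM before and 192, 62 and 43.9 RPKM after, with overlapping groups. Of 29 tested genes of maternal mRNA decay, which include the deadenylase subunits Cnot1 and Cnot9, 0 rose and 0 fell. Of 16 tested genes of dormant maternal mRNA, 1 (Eif4e1b) fell and 0 rose, where 2.05% and 3.48% of all tested genes did.

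The largest decreases were spread over genes of several functions. Txnip, the thioredoxin-interacting protein, which restrains glucose uptake, fell from 226, 699 and 486 RPKM to 35.9, 44 and 28.9 RPKM, with a log2 change of -3.54 (SE 0.52) and an adjusted p of 0.0952 in the limma fit to 6 libraries. Its overlapping antisense gene Gm15441 had at most 0.471 RPKM. Gm1070, a long noncoding RNA, fell from 47.4, 368 and 321 RPKM to 18.7, 21.8 and 0.126 RPKM. Zfp442, a zinc finger gene, went from 13.8, 15.1 and 21.8 RPKM to 2.15, 0.0246 and 0.0621 RPKM.

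Uchl1, an abundant deubiquitinase of the oocyte, fell from 151, 88 and 174 RPKM to 31.3, 39.7 and 3.0 RPKM. Its antisense partner Uchl1os, at 0.296 to 18.3 RPKM, cannot be told apart from it without strand. Polr3d, a subunit of RNA polymerase III, had 34.6, 23.7 and 12.3 RPKM before and 11.5, 0.0334 and 0.477 RPKM after. Gins1, a subunit of the replicative helicase, had 28, 18.7 and 20.5 RPKM before and 18.3, 0.0475 and 0 RPKM after. In Polr3d and Gins1 the highest 2-cell value, in replicate 1, lay just under the lowest 1-cell value, and each was called in 3 of the 6 fits that left out 1 library. The other genes of the rule (Gm12540, 4930583I09Rik, Ccdc191, Gm12050, Gm43574, Zfp612, Gm4929 and Cryl1) had at most 46.1 RPKM in 1-cell and 6.02 RPKM in 2-cell embryos.

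**Figure D4:**
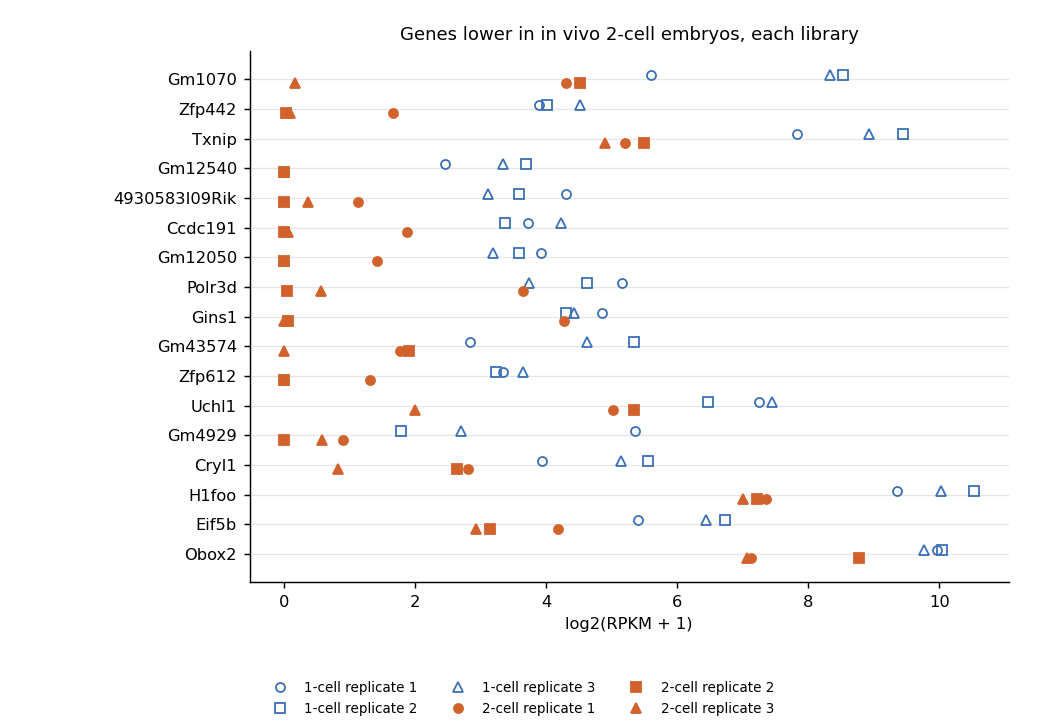
Level of the 14 genes with the largest decreases under the naming rule, and of H1foo, Eif5b and Obox2, in each of the 6 in vivo libraries, as log2(RPKM + 1). Open blue symbols are 1-cell and filled orange symbols 2-cell embryos, and the symbol shape gives the replicate. In H1foo, Txnip and Eif5b all 2-cell symbols lie to the left of the 1-cell symbols, and in Polr3d and Gins1 2-cell replicate 1 lies beside them.

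Genes of the translation machinery were called in small numbers, read here against 3.48% higher and 2.05% lower over all genes tested. Of 46 tested translation initiation genes, 4 fell (Eif5b, Eif4a1, Eif3a and Eif4e1b) and 0 rose, with a median log2 change of -0.11. Leaving out 1 library gave 1 (without 2-cell replicate 3) to 6 (without 2-cell replicate 1) falling genes, and 2 without 1-cell replicate 1 or 2. Eif5b, the GTPase that joins the ribosomal subunits, went from 41.3, 105 and 85.4 RPKM to 17.1, 7.86 and 6.61 RPKM, and the groups did not overlap. It was called in each of the 6 fits that left out 1 library. Eif4a1, an RNA helicase of the cap-binding complex, had 410, 239 and 183 RPKM before and 162, 201 and 4.24 RPKM after, and 2-cell replicate 3 lay far below the other libraries. Eif5b overlaps Rev1 on the opposite strand, and Rev1 had 0.0117 to 8.61 RPKM.

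The study names 3 initiation factors for this transition, among genes it reports as raised in vivo and lowered in both NT groups. Eif1ad had 0.0388, 1.01 and 0.87 RPKM in 1-cell and 11.2, 4.55 and 0.588 RPKM in 2-cell embryos. Eif1ax, the X-linked eIF1A, which scans for the start codon, had 15.1, 17.7 and 19.7 RPKM before and 39.2, 114 and 8.84 RPKM after. Eif3j2 was at 0.0695 to 0.138 RPKM before and at 0.971, 0.303 and 3.87 RPKM after. Eif1ad and Eif1ax overlapped between the stages because of 2-cell replicate 3, and none of the 3 was called, with adjusted p-values of 0.15, 0.299 and 0.196 for Eif1ad, Eif1ax and Eif3j2 in the limma fit over 20 groups.

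Eef1a1, the elongation factor that brings aminoacyl-tRNA to the ribosome, was chosen after its values were seen. It had 15.7, 149 and 281 RPKM in 1-cell and 1034, 1263 and 881 RPKM in 2-cell embryos, with a log2 change of 3.56 (SE 0.83 in the fit to 6 libraries). The adjusted p was 4.24e-06 in the limma fit over 20 groups, and the gene was not called in the fit to 6 libraries. Of 62 tested ribosomal protein genes, 4 rose (Rps3a2, Rpl23, Rpl7a and Rps3) and 2 fell (Rpl5 and Rpl37), and the median log2 change was 0.18. Without 2-cell replicate 1, 7 rose. Rpl7a had 0.215, 13 and 8.88 RPKM before and 16.4, 18.9 and 32.2 RPKM after. Rpl37 had 12.9, 12.1 and 13 RPKM before and 5.58, 5.81 and 2.86 RPKM after. Rps3a2 is annotated as a processed pseudogene, and 27 of the 89 ribosomal protein genes in the table were too low to be tested.

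Of 61 tested genes of ribosome biogenesis, 1 rose and 1, Nop56, fell. The riser was Taf1d, a subunit of the selectivity factor of RNA polymerase I, with 5.98, 7.68 and 4.29 RPKM in 1-cell and 42.3, 94.9 and 258 RPKM in 2-cell embryos. Its log2 change was 3.90 (SE 0.69). Taf1d hosts small nucleolar RNA genes and overlaps Cep295 and 4931406C07Rik on the opposite strand, which had at most 15.9 and 9.60 RPKM.

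Lists of general machinery were set against the same shares of 3.48% higher and 2.05% lower. Of 48 tested DNA replication genes, 2 fell (Gins1 and Rpa1) and 0 rose, and 0 or 1 fell when any 1 library other than 2-cell replicate 1 was left out. Gins4, another subunit of the replicative helicase, had 22, 28.5 and 47.3 RPKM before and 110, 186 and 134 RPKM after. Its groups did not overlap, and its adjusted p was 0.0612 in the limma fit over 20 groups. Of 51 splicing genes 2 fell (Sf3b6 and Lsm2), of 36 proteasome genes 1 (Psma7), of 24 heat shock and chaperonin genes 1 (Hspa4) and of 62 cell cycle and mitosis genes 1 (Cdc25a), with 0 rising in each list. Of 71 genes of the RNA polymerase II machinery, 51 of chromatin and DNA methylation and 17 of p53 and apoptosis, 0 were called in either direction.

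Mitochondrial genes were examined from both genomes. Of 12 tested genes of the mitochondrial genome, 11 had a positive change, with a median of 0.77, and 0 were called. mt-Co1, a core subunit of cytochrome c oxidase, had 10431, 8589 and 12109 RPKM in 1-cell and 11888, 21772 and 29618 RPKM in 2-cell embryos, and the ranges overlapped. mt-Nd4, of complex I, had 3177, 1940 and 2731 RPKM before and 3797, 4490 and 5991 RPKM after, without overlap. Of 52 tested nuclear genes of the respiratory chain, 3 fell (Ndufs1, Ndufb9 and Atp5h) and 0 rose, where 2.05% and 3.48% of all tested genes did. The median log2 change of these 52 was -0.26.

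**Figure D5:**
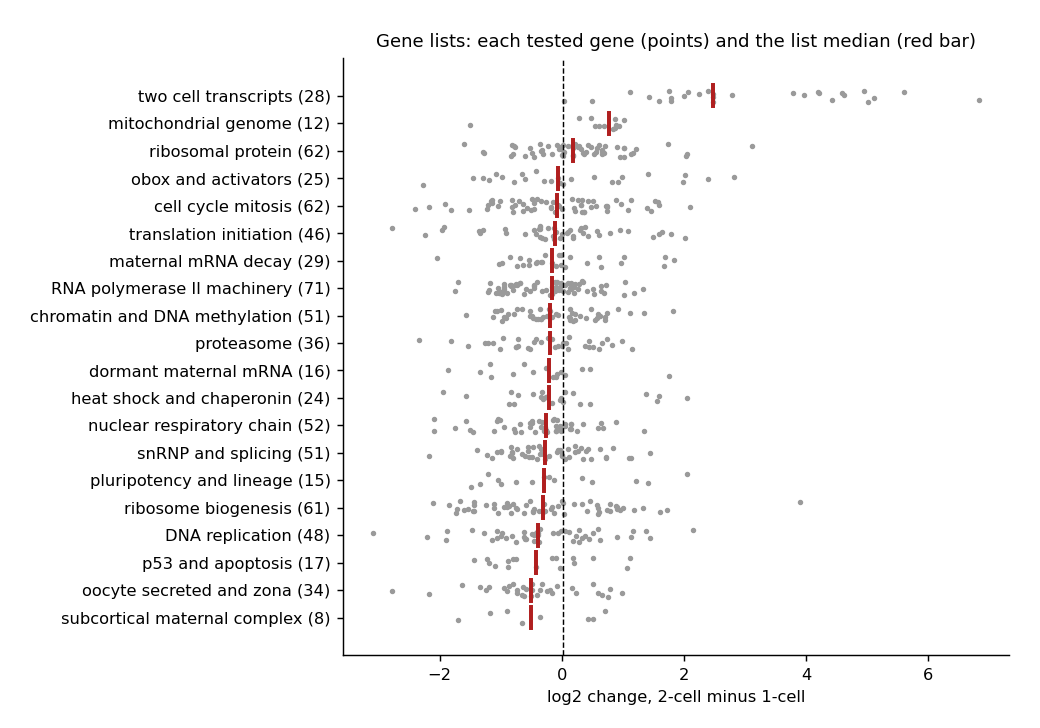
Log2 change, 2-cell minus 1-cell, of each tested gene (grey points) in the gene lists with at least 8 tested genes, whose number is in parentheses. Red bars are list medians and the dashed line is the median over all genes, 0.02. The 2-cell transcripts lie apart with a median of 2.48, and the oocyte and zona list has a median of -0.50.

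Most markers of other cells were at or near 0 in these single embryos. Of 18 cumulus cell markers, 3 to 8 were above 0 in a library, and the list summed to 3.78 to 96.8 RPKM in 1-cell and 30.3 to 35.6 RPKM in 2-cell embryos. Serpine2 made up most of it, with 0.323, 83.7 and 79.1 RPKM in 1-cell and 29.9, 32.6 and 25.5 RPKM in 2-cell embryos. Ptx3, Tnfaip6, Foxl2 and Amh were among the cumulus markers listed at 0 in all 6 libraries, while Serpine2 and Cyp19a1 were above 0 in each. Of 12 sperm markers, 1 to 5 were above 0, with sums of 1.91 to 14.1 RPKM, and Prm1 and Odf1 were listed at 0 throughout. Oviduct markers summed to at most 1.33 RPKM and blood markers to at most 0.42 RPKM in any library. Of these lists, 3 cumulus and 2 sperm markers were high enough to be tested, and 0 oviduct and 0 blood markers were. Among the tested markers 1 was called, a cumulus marker, where 2.05% of all tested genes fell. It was Cyp19a1, the aromatase gene, which fell from 3.31, 4.79 and 6.41 RPKM to 1.45, 2.67 and 0.765 RPKM. The part of such cells in the changes above was not tested.

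In NT embryos the same step was compared gene by gene. The genes that rose in vivo were higher in NTC 2-cell than NTC 1-cell embryos in 213 of 378 cases (56.3%), where 37.8% of all tested genes were, and the median NTC change was 0.11 against 2.00 in vivo. In NTM embryos, 181 of 378 (47.9%) were higher, where 36.7% of all tested genes were, with a median change of 0. Of the 222 genes that fell in vivo, 166 (74.8%) were lower in NTC 2-cell embryos, where 60.1% of all tested genes were, and 149 (67.1%) in NTM 2-cell embryos, where 59.5% were. The in vivo medians rest on the values that chose these genes, so they are given as a description. The fit that called the genes also took its spread from the NT libraries. The NT values thus had a part in the choice, and the NT shares and medians are a description too.

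The 2-cell list summed to 870, 399 and 402 RPKM in NTC 2-cell and to 355, 250 and 163 RPKM in NTM 2-cell embryos. Of these 6 values, 4 lay in the lower part of the in vivo range of 325 to 5163 RPKM and the others below it. The sums were already 329, 326 and 291 RPKM in NTC and 207, 335 and 188 RPKM in NTM 1-cell embryos. In NTM embryos the ranges of the stages thus overlapped, while each NTC 2-cell sum lay above each NTC 1-cell sum. Duxf3 had at most 0.0314 RPKM in NTC 2-cell embryos and was listed at 0 in the 3 NTM 2-cell embryos. Zscan4d had 2.29, 0.292 and 0 RPKM in NTC and 0 in all NTM 2-cell embryos, below each in vivo 2-cell library. Zfp352 had 205, 168 and 108 RPKM in NTC and 83.4, 5.62 and 34.4 RPKM in NTM 2-cell embryos, within or close to the in vivo range of 6.93 to 395 RPKM. H1foo was already at 71.8 to 130 RPKM in NTC and 77.6 to 212 RPKM in NTM 1-cell embryos, below each in vivo 1-cell library, and had 88.8 to 165 RPKM in NT 2-cell embryos.

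The difference between the changes was tested as an interaction in limma. It was past the threshold for 3 of 11730 genes (0.0256%) in NTC and 23 of 11278 (0.204%) in NTM embryos. Among the genes named above, Gm8711 and Gm6489 did not leave 0 in NTM embryos, a difference of -5.86 and -5.20 from the log2 change in vivo. Gm5039 changed by 6.82 in vivo and by -2.69 in NTM embryos. Uchl1 and Zbed3 went the other way, with changes of -2.94 and -1.70 in vivo and of 3.11 and 2.80 in NTM embryos. The adjusted p in limma was 0.0472 for each of these 5 genes. Uchl1 had 4.56 to 6.28 RPKM and Zbed3 459 to 540 RPKM in NTM 1-cell embryos, below each in vivo 1-cell library. In NTM 2-cell embryos they had 53.8 to 57.7 and 2822 to 4788 RPKM, above each in vivo 2-cell library. For Duxf3 the difference was -4.2 (NTC) and -4.28 (NTM), with adjusted p-values of 0.145 and 0.0721 in limma, and for Zscan4d -6.82 and -7.26, with 0.107 and 0.0604. These counts hang on single settings and libraries. Without replicate 1, 2 or 3 they were 0, 0 and 0 (NTC) and 4, 0 and 2 (NTM), and at an unadjusted p under 0.05 they were 1337 and 1439.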

How the data were processed

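Single embryos were sequenced as amplified cDNA, and the authors deposited 1 table of RPKM values per gene for 60 libraries. Per their methods, reads were aligned with TopHat and Bowtie2 and counted with HTSeq, and the methods name the unit FPKM. The submitters' processing notes list Bowtie 0.12.2 and the genome build mm8, and how these relate to the table's Ensembl IDs is not given in the sources used here. Strand was not stated, and there were no molecular identifiers. All 60 columns were mapped to samples, and the number of columns of no sample was 0.

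Of 27238 IDs, 27013 matched a GENCODE M21 symbol. The 10854 genes whose mean RPKM over the 6 libraries reached 0.5 were tested on log2(RPKM + 1) with limma 3.58.1 (R 4.3.3, intensity trend), called at a Benjamini-Hochberg adjusted p under 0.05 and a log2 change of at least 1 in size. One fit over 20 groups shared their spread, and changes in NT embryos were compared by interaction terms in fits to 12 libraries. Tables and plots used Python 3.11.15, numpy 2.4.6, pandas 2.3.3 and matplotlib 3.10.9, and the fits were tested on simulated data.

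Named genes were all calls of the fit to 6 libraries, the 14 largest changes in each direction among non-overlapping genes with an unadjusted p under 0.05 that were called over 20 groups, the genes the study names, the 3 largest changes in each of 24 gene lists, and members described for a known role. The members and lists were chosen with earlier results of these data known. Embryos came from independent experiments per the labels, and p-values of the fits to 6 and 12 libraries measure the spread between single embryos. Those of the fit over 20 groups also take in the spread of later stages, NT embryos and donor cells. Alternatives were other pseudocounts, filters, scalings and weights, a replicate block and leaving out libraries. Leaving out 1-cell replicate 1 and 2-cell replicate 3 together, and the alternatives of the fit over 20 groups, were added after seeing the data.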

Additional observations from a re-analysis of the deposited data

Results flagged for a closer look

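The change from the 1-cell to the 2-cell stage differed between NTC and in vivo embryos for 3 genes, by an interaction test in limma. These were Ifit1bl2, which changed by 1.63 in vivo and by -2.54 in NTC embryos on the log2 scale, and Fam43a and Rpp25, which were near 0 in the in vivo embryos and changed by 4.63 and 4.58 in NTC embryos. The same test between NTM and in vivo embryos gave 23 genes, 8 with a positive and 15 with a negative difference, NTM minus in vivo. Among them, Phf1 had 279, 178 and 0.598 RPKM in the in vivo 2-cell embryos, and Ube2s had 225, 219 and 2.2 RPKM. In both, in vivo 2-cell replicate 3 stood far below the others. The NTM libraries also differed at the start. Phf1 had 1.80, 0.696 and 1.52 RPKM at the NTM 1-cell stage, where the in vivo values were 222, 327 and 337 RPKM. For Ube2s these were 0.989, 1.03 and 0.978 RPKM (NTM) and 462, 288 and 200 RPKM (in vivo). The log2 changes of Phf1 and Ube2s were 7.15 and 6.13 for NTM, and -2.76 and -2.47 in vivo.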

How the results depend on the processing

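In the fit to 6 libraries, 0 genes were called, also with a pseudocount of 0.1, no filter, a mean RPKM of at least 5, median-ratio scaling, no intensity trend and no fold threshold. The count was 600 in the fit over 20 groups, 78 in a fit over the 6 groups of 1-cell and 2-cell embryos, 27 with array weights, 612 at an unadjusted p, and 7 without 1-cell replicate 1 and 2-cell replicate 3 together. Leaving out 1 library gave 0 to 9 genes, the 9 without 2-cell replicate 1. The replicate block gave 27 genes, but same-numbered libraries deviated from their group means with correlations of -0.18, -0.05 and -0.11, so the numbers did not pair the samples. In the fit over 20 groups, leaving out 1 library gave 551 to 1092 genes, and the replicate block 596. For the NTC difference, 3 genes became 1 with a pseudocount of 0.1, 409 over 20 groups, 15 over 6 groups and 0 with the replicate block, and leaving out a replicate gave 0 to 0. For the NTM difference, 23 became 0 with no filter, 954 over 20 groups, 238 over 6 groups and 0 with the replicate block, and leaving out a replicate gave 0 to 4. The causes were not tested. Median-ratio scaling moved the median change of all genes from 0.02 to 0.05 in the fit to 6 libraries and to 0.13 in the fit over 20 groups. Of 1467 values of the 93 named genes under alternatives, 1450 kept their direction and 17 changed sign, in 7 genes.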
